A study of Mus musculus with 63 samples.

Results

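The 8 mouse genes AI506816, Entpd4, Wdfy1, Eno1b, Serpina3h, Gm6756, Gm5512 and Zfp131 were followed library by library through RNA-seq of mice lacking the long noncoding RNA Chaserr or carrying a mutated Chd2. They were taken by symbol, together with every row of those symbols named by transcript, which gave 15 of the 24990 rows of each count table: 1 row each for AI506816, Entpd4, Wdfy1, Serpina3h and Gm6756, 2 each for Eno1b and Gm5512, and 6 for Zfp131. The symbols had been proposed because measured values of these same libraries looked like switches rather than graded changes. The members were chosen by the counts of AI506816, Entpd4 and Wdfy1 in E13.5 embryos, of Eno1b, Serpina3h and Gm6756 in Chaserr+/- embryonic fibroblasts, of Eno1b in Chd2m/m fibroblasts and of Zfp131 in Chaserr-/- fibroblasts. Those values are therefore given as a description with no test, and so are all values of Gm5512, for which the choosing comparison is not known.

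Chaserr lies upstream of Chd2, which encodes a chromatin remodeler, and the study asked how loss of Chaserr changes Chd2 and other genes. RNA came from 47 libraries of the 63 samples: whole embryos at E9.5 (3 WT, 3 Chaserr+/-) and at E13.5 (3 WT, 3 Chaserr+/-), adult brains (3 WT, 3 Chaserr+/-), 4 sets of mouse embryonic fibroblasts (mEFs), derived from embryos at E13.5, and 6 libraries of RNA immunoprecipitated from Neuro2a neuroblastoma cells, called RIP (2 with an antibody to CHD2, 2 with control IgG, 2 input). The mEF sets compared Chaserr+/- (n = 3), Chaserr-/- (n = 3), Chd2m/m (n = 2) and the double mutant Chaserr-/- Chd2m/m (n = 3), each with 3 WT libraries of its own, and 12 ATAC-seq libraries measured open chromatin in mEFs. By the labels, the WT libraries of the Chaserr+/- and Chaserr-/- RNA sets came from the same pregnancy as their mutants. A level shared by all libraries of such a set cannot be told apart from a level of that litter. Chaserr alleles were deletions of the promoter and first exon in 2 founder lines used interchangeably, Chd2m was a frameshift in an early exon, and the deletion of the double mutant was made again on the Chd2m/m background. Founders were made by injection into CB6F1 Ola HSD, a cross of BALB/c and C57BL/6, and their descendants were crossed back to C57BL/6 Ola HSD mice for a few generations before use. The labels give no strain background per library, and its part in these patterns was not tested.

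RNA-seq reads are assigned to a gene by sequence alone. When a gene has a near-identical copy, a read that fits both is shared between them by an estimate, so a small change in a few distinguishing bases can move many reads from one row to another. Retrocopies, which are reverse-transcribed mRNAs inserted elsewhere in the genome, and recent gene duplications are the usual sources of such copies, and inbred mouse strains differ in which of them they carry and transcribe. The files hold estimated (expected) counts from RSEM, a program that shares out such reads. They also hold rows named by a transcript accession followed by an asterisk beside the row of the gene; what the asterisk marks is not given in the sources used here. Of the 15 rows, 7 were of that kind: 1 of Eno1b, 1 of Gm5512 and 5 of Zfp131.

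Libraries totaled between 7621335 and 33192002 expected counts. Chd2 was called higher in E13.5 embryos and in all 4 mEF comparisons, by 0.55 to 1.88 on the log2 scale, in the edgeR quasi-likelihood test with Benjamini-Hochberg adjustment. Chaserr was at 0 TPM, an abundance corrected for transcript length, in each Chaserr-/- library against 8.63 to 13.8 in their WT, and at 0 to 0.23 TPM in double-mutant mEFs against 80.0 to 93.7. Marker lists matched the labels of embryos, brains and mEFs. The 6 fibroblast markers summed to 6292 to 11630 TPM in mEFs, 2440 to 3300 in E13.5 embryos and at most 1190 in E9.5 embryos. The 5 erythroid markers summed to 6895 TPM or more in embryos and at most 873 in brains, and 7 brain markers to 7113 or more in brains. Macrophage markers in mEFs summed to 156 to 1058 TPM and were highest in the WT libraries of the Chaserr-/- set. The RIP immunoprecipitates went against their label, with brain genes and the adult globin gene Hba-a1 at high levels, and the input libraries held less of both.

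A row was called off in a library at a rounded count of 0 and on at 20 or more, and on-off in a set of libraries when it was off in at least 1 library and on in at least 1 other. The label of all-or-none genes fitted only some of the rows. Over the 15 rows and 8 sets, 22 of 120 combinations were on-off. In 15 of them both states occurred among libraries of 1 group, and in 4 every library of one group was off and every library of the other on. Of the former, 4 were in brains, where replicate 3 of each group came from another library kit. Rows for Entpd4, Wdfy1, the Eno1b gene, the Gm5512 and Rmnd1 pair and the Zfp131 gene were on in all 47 libraries and so were never all-or-none. Of the 7 asterisk rows, 6 were on-off in at least 1 set. Among all asterisk rows of the tables, 42.4 to 54.3% of those on in any library were on-off in a set, against 0.122 to 5.41% of the other rows.

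**Figure D1:**
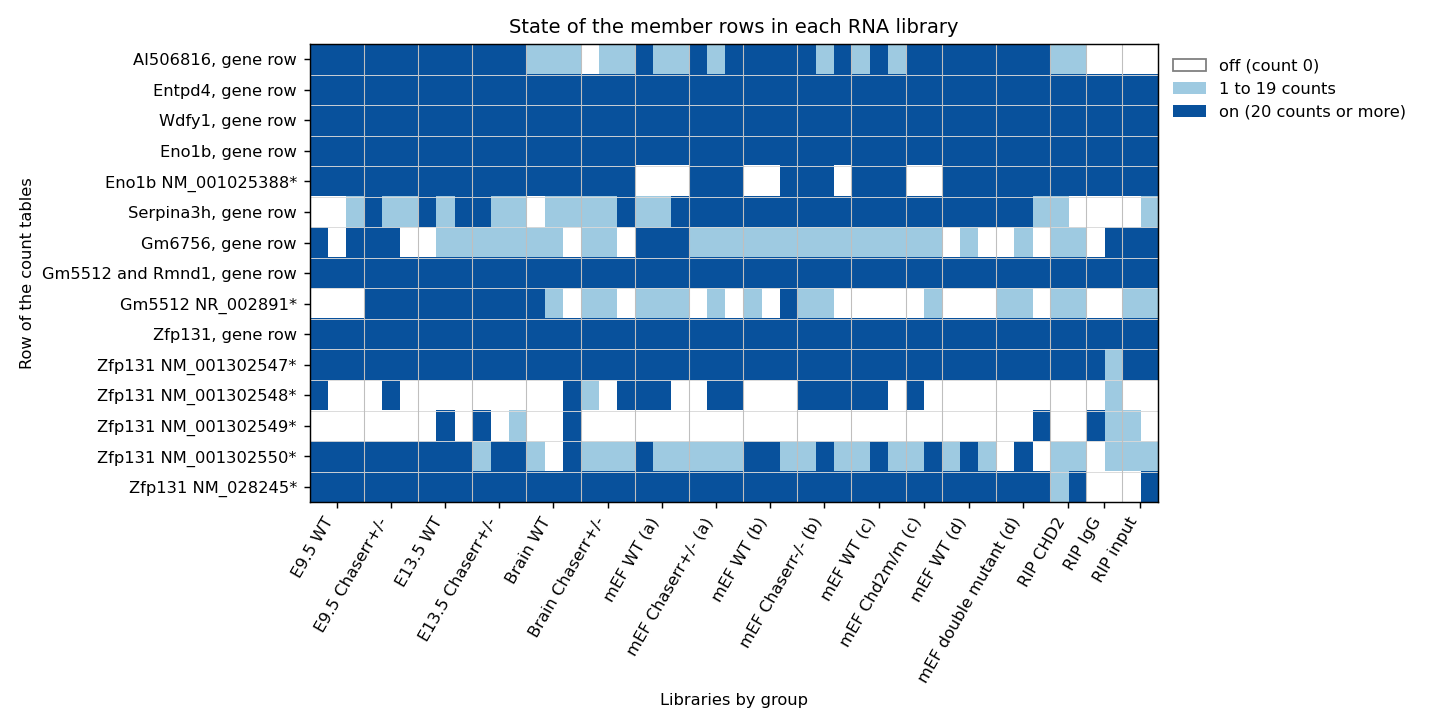
State of each of the 15 rows (vertical) in each of the 47 RNA libraries (horizontal, by group, with thin lines between groups): white is a count of 0, light blue 1 to 19 counts, dark blue 20 or more; (a) to (d) mark the mEF sets of Chaserr+/-, Chaserr-/-, Chd2m/m and the double mutant. Rows of Entpd4, Wdfy1, the Eno1b gene, Gm5512 with Rmnd1 and the Zfp131 gene are dark throughout, while most rows with an asterisk switch between white and dark, often inside 1 group.

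Counted by set, on-off members were 4 of 14 in E9.5 embryos (0.603% of all rows on in any library there), 1 of 13 in E13.5 embryos (0.648%), 5 of 13 in brains (1.41%), 2 of 13 in the Chaserr+/- mEF set (0.459%), 3 of 13 in the Chaserr-/- set (0.722%), 2 of 12 in the Chd2m/m set (0.396%), 2 of 12 in the double-mutant set (0.672%) and 3 of 10 in the RIP libraries (5.66%). A row that was off throughout one group and on throughout the other was seen once in E9.5 embryos, for Gm5512 NR_002891* (0.0142% of all rows), once each in the Chaserr+/- (0.00777%) and Chd2m/m (0.00761%) mEF sets, both for Eno1b NM_001025388*, and once in the Chaserr-/- set, for Zfp131 NM_001302548* (0.015%). No member and 0% of all rows did so in E13.5 embryos, brains or the double-mutant set. Members are counted here by row, and they were chosen for such patterns, so nothing is read from these counts.

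The same holds for the calls of the edgeR test. It called 0 of 12 members tested in E9.5 embryos (0% of all rows tested), 3 of 13 in E13.5 embryos (0.0314%), 0 of 10 in brains (0%), 4 of 13 in Chaserr+/- mEFs (0.173%), 1 of 13 in Chaserr-/- mEFs (0.118%), 1 of 13 in Chd2m/m mEFs (0.0145%) and 0 of 10 in double-mutant mEFs (0.0924%). Where it called none, an unadjusted p under 0.05 was reached by 2, 0 and 3 members in E9.5 embryos, brains and double-mutant mEFs, and DESeq2 called 1, 0 and 0. All 9 calls in these 7 comparisons fell in the comparisons that had chosen the genes.

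AI506816 is a noncoding RNA gene with no known function. Its promoter was shown because a stretch of it recurs in the genome of the mm9 build, in opposite orientation, at the start of another noncoding RNA gene, 2700038G22Rik. The pair is printed with the 6 bases that differ in capitals, the first from the minus strand at chr5:23218436-23218641 and the second from the plus strand at chr5:23356258-23356463 (promoter sequence from RefSeq on GRCm38, matched to mm9).
AI506816 promoter: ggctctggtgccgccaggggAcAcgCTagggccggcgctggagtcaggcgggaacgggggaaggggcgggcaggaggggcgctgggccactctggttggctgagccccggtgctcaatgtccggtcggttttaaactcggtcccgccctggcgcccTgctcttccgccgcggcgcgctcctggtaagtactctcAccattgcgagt
2700038G22Rik start: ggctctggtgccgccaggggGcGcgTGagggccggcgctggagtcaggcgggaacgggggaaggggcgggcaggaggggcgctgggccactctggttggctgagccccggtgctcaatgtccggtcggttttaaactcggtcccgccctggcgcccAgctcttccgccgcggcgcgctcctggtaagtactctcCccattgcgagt

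AI506816 had 22.04, 31.05 and 29.26 expected counts in the 3 WT embryos at E13.5 and 776, 774 and 712 in the 3 Chaserr+/- embryos. The groups lay far apart and the libraries within each close together, with a log2 fold change of 4.68 ± 0.12 (SE), a value that chose the gene. No such gap appeared at E9.5, where WT embryos had 98.4, 92.1 and 104 counts and Chaserr+/- embryos 112, 81.3 and 128 (log2 fold change 0.12 ± 0.16, adjusted p = 1.00, edgeR with Benjamini-Hochberg). In brains the row was at or near 0, between 0 and 4.5 counts. In the RIP libraries it held at most 4 counts.

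Which AI506816 transcript was counted could be worked out from the row lengths. The row joins a shorter and a longer transcript, and the length that RSEM lists is their mean weighted by abundance. The shorter was taken as the lowest length listed, 453 bases. The longer came to 2431 bases, taking the 1442 bases listed at a count of 0 as their plain mean. On these inferred lengths the TPM was divided between them. In Chaserr+/- embryos at E13.5 the longer transcript reached 18.5, 20.9 and 21.9 TPM, against 0.18, 0.12 and 0.12 TPM in WT. The shorter transcript held 3.9, 3.66 and 4.79 TPM in Chaserr+/- and 4.04, 6.36 and 6.13 TPM in WT, so the whole gap lay in the longer one.

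The longer AI506816 transcript was also present in mEFs, but there it crossed the genotypes. In the Chaserr-/- set it stood at 11.96, 12.96 and 0.16 TPM in WT libraries 4, 5 and 6 and at 11.6, 0.08 and 0.08 TPM in Chaserr-/- libraries 1, 2 and 3. In the double-mutant set it stood at 0.69, 18.6 and 0.73 TPM in WT and at 18.5, 0.56 and 0.51 TPM in the mutants. Some libraries of each genotype were thus high and the rest low, with nothing in between. Counting all 41 libraries outside the RIP, 8 had 11.6 to 21.9 TPM of the longer transcript and 33 had at most 0.829 TPM (a split at 1 TPM, set after the values were seen). The shorter transcript was found in all 35 embryo and mEF libraries, at 1.21 to 36.9 TPM. For the row as a whole the log2 fold change was -1.01 ± 0.86 in Chaserr-/- and -0.10 ± 0.63 in double-mutant mEFs (adjusted p = 0.424 and 0.984, edgeR with Benjamini-Hochberg), and 0.03 ± 0.39 in Chaserr+/- and 0.67 ± 0.31 in Chd2m/m mEFs (adjusted p = 0.991 and 0.937). None of these passed, but the Chaserr-/- value depended on single libraries: without Chaserr-/- library 1, the high one, it was -2.97 ± 0.77 (adjusted p = 0.0474, same test), and without any 1 of the other 5 between -1.50 and -0.50.

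**Figure D2:**
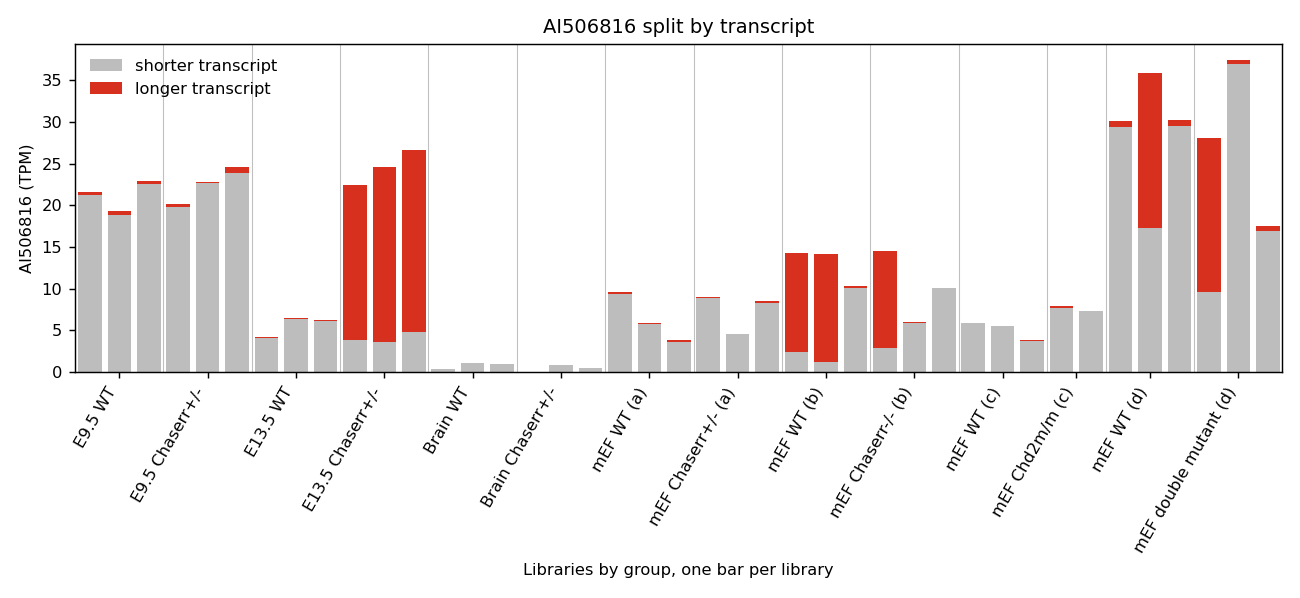
AI506816 in TPM in the 41 libraries of embryos, brains and mEFs, 1 bar per library, split into the shorter (grey) and longer (red) transcript; (a) to (d) mark the mEF sets of Chaserr+/-, Chaserr-/-, Chd2m/m and the double mutant. The longer transcript reaches 11.6 to 21.9 TPM in 8 libraries, among them all 3 Chaserr+/- embryos at E13.5 and both WT and mutant mEFs, and at most 0.829 TPM in the other 33.

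Entpd4 encodes a nucleoside diphosphatase of the Golgi and lysosomes. Its promoter, at mm9 chr14:69954958-69955257 on the plus strand, is shown because the RefSeq promoter of the duplicate gene Entpd4b on GRCm38 matched this single place in mm9 without a difference, so mm9 holds no second promoter by which the copies could be told apart. Capitals mark the transcribed bases.
Entpd4 promoter: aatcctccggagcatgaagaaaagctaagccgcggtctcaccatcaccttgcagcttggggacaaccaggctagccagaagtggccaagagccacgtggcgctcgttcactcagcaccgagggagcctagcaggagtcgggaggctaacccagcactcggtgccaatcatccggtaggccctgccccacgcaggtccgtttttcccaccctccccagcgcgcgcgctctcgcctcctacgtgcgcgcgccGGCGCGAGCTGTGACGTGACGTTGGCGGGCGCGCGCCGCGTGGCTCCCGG

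Entpd4 was not an on-off gene. At E13.5 it had 1979, 1776 and 1795 counts in WT embryos and 1222, 1280 and 1129 in Chaserr+/- embryos, groups that did not overlap but differed by a log2 fold change of only -0.72 ± 0.068 (SE). At E9.5 the WT embryos had 940, 992 and 698 counts and the Chaserr+/- embryos 824, 747 and 887, which overlapped. In the comparisons that had not chosen it, the log2 fold change lay between -0.45 (double mutant) and 0.14 (Chaserr-/- mEFs), and no adjusted p of edgeR with Benjamini-Hochberg adjustment was under 0.372. The E13.5 fold change lay between -0.76 and -0.65 under all fits, those with any 1 embryo left out included. Among the other genes of the ectonucleotidase family, of which Entpd4b had no row, Entpd3 rose in Chaserr+/- mEFs (log2 fold change 2.43 ± 0.374, adjusted p = 0.0318, edgeR with Benjamini-Hochberg), the 1 call of 5 tested there, where 0.173% of all rows were called. In the RIP, Entpd7 was the 1 call of 6 tested, higher with CHD2 than with IgG (2.28 ± 0.414, adjusted p = 0.0125, same test), where 11.5% of all rows were called.

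Wdfy1 encodes an endosomal protein with WD40 repeats and a FYVE domain, a lipid-binding module, that acts in innate immune signaling. It was on in every library, with 1956, 2000 and 1919 counts in WT embryos at E13.5 and 1440, 1587 and 1367 in Chaserr+/- embryos. The groups did not overlap, and the log2 fold change that chose the gene was -0.53 ± 0.048 (SE). At E9.5 the values were 734, 1131 and 1272 counts in WT and 883, 671 and 1211 in Chaserr+/-, which overlapped. Across the E9.5, brain and mEF comparisons it ranged from -0.19 to 0.34, and no adjusted p of the main fits was under 0.189 (edgeR with Benjamini-Hochberg). The 0.34 ± 0.28 of Chd2m/m mEFs depended on single libraries, at 0.01 without WT library 2 and 0.60 without WT library 3. With a replicate block, which drops WT library 3, it was 0.69 ± 0.10 (adjusted p = 1.05e-07, same test). Same-numbered libraries of that set did not deviate together, so this call is not relied on. The E13.5 fold change lay between -0.54 and -0.49 under all fits. No second locus in mm9 matched the Entpd4 or Wdfy1 transcript at 90% identity or more in a single piece of 1000 bases or more. A copy split into shorter exons would be missed. Even the own loci matched only 1753 of 3589 bases (Entpd4) and 3311 of 4551 bases (Wdfy1) in such a piece.

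Gm5512 is a retrocopy of Rmnd1, a gene for a mitochondrial protein needed for translation inside the organelle. Its locus in mm9 matched the Rmnd1 transcript (chr10:5914153-5944626) over 1760 bases at 99.0% identity, with 17 differences. Of all 40-base windows in that match, about the length of a read, 74.7% held no difference. Reads were sequenced in pairs, which a single window does not take into account. A stretch of the coding part that held the most differences is printed with those 3 bases in capitals. It covers bases 1019 to 1168 of the Rmnd1 transcript and chr19:12980611-12980760 of the retrocopy on the plus strand.
Rmnd1 transcript: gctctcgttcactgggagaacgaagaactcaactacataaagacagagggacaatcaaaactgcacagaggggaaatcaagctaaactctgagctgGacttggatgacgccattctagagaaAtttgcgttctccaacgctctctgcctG
Gm5512: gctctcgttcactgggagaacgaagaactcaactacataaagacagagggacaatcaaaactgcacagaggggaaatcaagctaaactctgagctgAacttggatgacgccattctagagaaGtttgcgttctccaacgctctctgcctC

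The files hold a row that joins Gm5512 with Rmnd1 and a second row of the Gm5512 transcript alone, NR_002891*. In E9.5 embryos the second row had 0, 0 and 0 counts in WT and 30.2, 34.6 and 29.3 in Chaserr+/-, a clean switch between genotypes. At E13.5 the same row was on in all 6 embryos, with 27.8 to 49.6 counts in WT and 28.4 to 44.5 in Chaserr+/-. The joined row had 592, 582 and 578 counts in the WT embryos at E9.5 and 626, 460 and 556 in Chaserr+/-. Summed, the rows came to 22.1 ± 1.04 CPM (counts scaled to a common library size, SD, n = 3) in WT and 21.9 ± 0.916 CPM in Chaserr+/- at E9.5. The second row made up only 1.22 CPM of the latter, about as much as the spread of the sum, so the sum does not show where its counts came from. In brains and mEFs the second row scattered between 0 and 31.1 counts within genotypes, and it was off in 19 of the 47 libraries.

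Zfp131 encodes a zinc finger transcription factor of the BTB family, named for a domain through which such proteins pair. In mm9 its 2 RefSeq promoters were found on unplaced contigs only, in 2 copies, and 150 bases around the single base by which the copies differ are printed with that base in capitals. The first lies at bases 32142 to 32291 of contig NT_110857 and the second at bases 12572 to 12721 of contig NT_166323.
Zfp131 copy 1: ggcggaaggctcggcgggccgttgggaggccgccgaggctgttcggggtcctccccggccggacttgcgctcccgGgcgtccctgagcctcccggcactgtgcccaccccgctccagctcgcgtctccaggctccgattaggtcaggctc
Zfp131 copy 2: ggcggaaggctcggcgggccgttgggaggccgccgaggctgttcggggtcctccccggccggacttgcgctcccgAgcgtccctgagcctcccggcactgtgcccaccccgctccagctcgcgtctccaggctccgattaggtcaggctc

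The gene row of Zfp131 joins 5 transcripts, and each of the 5 has an asterisk row as well. In the Chaserr-/- mEF set NM_001302548* was at 0, 0 and 0 in WT and at 51.2, 76.6 and 60.2 counts in Chaserr-/-. Elsewhere it switched within genotypes. The WT libraries of the Chaserr+/- set had 40.99, 59.9 and 0 counts and the Chaserr+/- libraries 0, 68.2 and 82.5, while the WT libraries of the Chd2m/m set had 43.0, 70.1 and 0 and the Chd2m/m libraries 80.3 and 0. All 6 double-mutant-set libraries and all 6 embryos at E13.5 were at 0. A second row, NM_001302549*, was on in 5 libraries and off in 39. Those 5 were a WT embryo and a Chaserr+/- embryo at E13.5 (117 and 94.5 counts), WT brain 3 (159), double-mutant mEF 3 (64.8) and IgG library 1 of the RIP (28.5).

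The gene row itself was on everywhere and differed little: log2 fold changes ran from -0.16 in Chaserr+/- to 0.44 in Chaserr-/- mEFs over the embryo, brain and mEF comparisons. Its share of all Zfp131 counts, in contrast, took a fixed value in some libraries. In all 16 libraries in which NM_001302548* was above 0 (15.4 to 82.5 counts), the gene row held 50% of the summed count of the 6 rows to within 0.1 percentage points, so that the gene row equaled the asterisk rows together. Among the 31 libraries with that row at 0, only 1 (IgG library 1 of the RIP) was at 50%. The other 30 lay above, between 51.2 and 67.0% with a median of 54.5%. In the Chaserr-/- set the WT libraries stood at 65.8, 64.2 and 62.1% and the Chaserr-/- libraries at 50% each. This comparison was made after the values were seen.

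**Figure D3:**
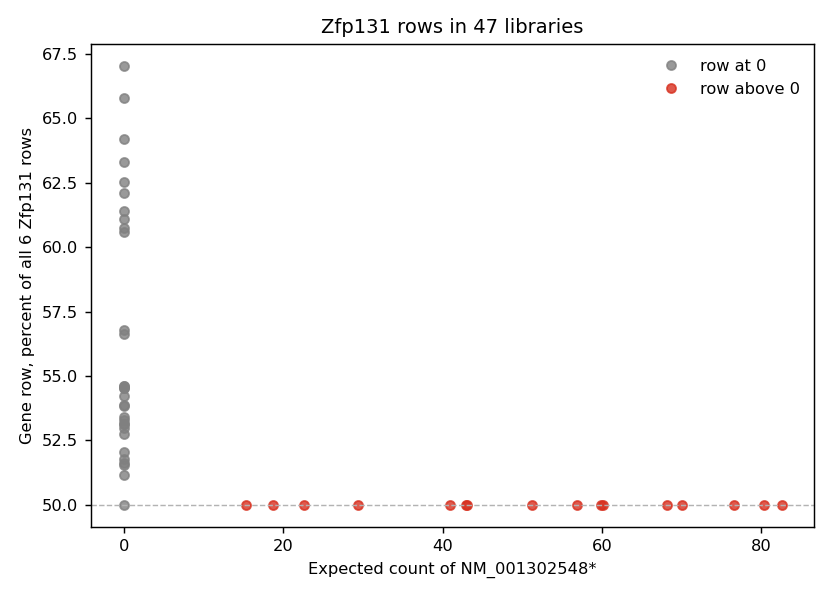
Share of the Zfp131 gene row in the summed expected count of all 6 Zfp131 rows (vertical, percent) against the expected count of row NM_001302548* (horizontal) in the 47 RNA libraries, 1 point per library. All 16 libraries with a count above 0 (red) lie on the dashed line at 50%, and 30 of the 31 at 0 (grey) lie above it, up to 67.0%.

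Eno1b is a near-copy of Eno1, the gene for alpha-enolase, which turns 2-phosphoglycerate into phosphoenolpyruvate in glycolysis. It is annotated as Gm5506 in mm9, at chr18:48204989-48208032 on the plus strand, and its transcript matched the pseudogene Gm13699 (chr2:80677284-80678919) over 1648 bases with 3 differences. Of the 40-base windows in that match, again taken singly and not as read pairs, 94.8% held no difference. The Eno1 transcript (chr4:149610830-149622988) matched the Eno1b locus over 1736 bases with 9 differences, and 85.7% of its windows held none. No enolase sequence is printed.

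In the Chaserr+/- mEF set the Eno1b gene row had 6941, 5388 and 5561 counts in WT and 214, 133 and 110 in Chaserr+/-. The second row, NM_001025388*, had 0, 0 and 0 in those WT libraries and 4309, 2914 and 2174 in the Chaserr+/- libraries, the opposite pattern. Both rows thus switched together, in opposite directions, in every library. In the Chd2m/m set only the second row switched: it had 1135, 1042 and 3635 counts in WT and 0 and 0 in Chd2m/m, while the gene row had 229, 252 and 220 in WT and 256 and 191 in Chd2m/m.

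In the Chaserr-/- mEF set, which had not chosen Eno1b, the rows switched within genotypes. The gene row had 5063, 4793 and 93.6 counts in WT libraries 4, 5 and 6 and 3261, 143 and 4326 in Chaserr-/- libraries 1, 2 and 3. NM_001025388* had 0, 0 and 350 counts in the same WT libraries and 605, 1090 and 0 in the same Chaserr-/- libraries. The gene row was highest in the 3 libraries in which the second row was at 0, Chaserr-/- library 1 held both, and both states occurred in WT and in Chaserr-/-. Over the 23 mEF libraries the gene row was at 235 to 499 CPM in 10 and at 9.2 to 60.6 CPM in 13, with none in between (a split at 100 CPM, set after the values were seen). In the double-mutant set both rows were on in every library, with 3670, 4385 and 641 counts of the gene row in WT and 304, 4563 and 618 in the mutants. No change passed in either set, with log2 fold changes of -0.30 ± 1.15 and -0.69 ± 0.78 for the gene row (adjusted p = 0.87 and 0.867, edgeR with Benjamini-Hochberg). In embryos the second row dominated, at 14961 to 23866 counts at E9.5 against 128 to 192 of the gene row.

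Summing the 2 Eno1b rows did not remove the difference in Chaserr+/- mEFs, where the sum was 461 ± 29.1 CPM (SD, n = 3) in WT and 245 ± 67.7 CPM (n = 3) in Chaserr+/-. It did not in Chd2m/m mEFs either (137 ± 88.0 CPM, n = 3, and 13.9 ± 2.13 CPM, n = 2). With Eno1 added, the 3 rows together came to 1838 ± 37.9 and 1750 ± 331 CPM in the Chaserr+/- set, 1726 ± 135 and 1601 ± 224 CPM in the Chaserr-/- set and 2203 ± 71.4 and 2289 ± 165 CPM in the Chd2m/m set, WT first. These differences were smaller than the spread between replicates or close to it, at -0.07, -0.11 and 0.06 on the log2 scale. Eno1 was by far the largest part of these sums. A change of the Eno1b rows alone would have moved them by only -0.18 in the Chaserr+/- and -0.08 in the Chd2m/m set, so they do not show whether counts passed between Eno1b and Eno1. Eno1 alone changed by 0.13, -0.11 and 0.14, and neither it nor Eno2, Eno3 or Eno4 was called in any comparison.

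**Figure D4:**
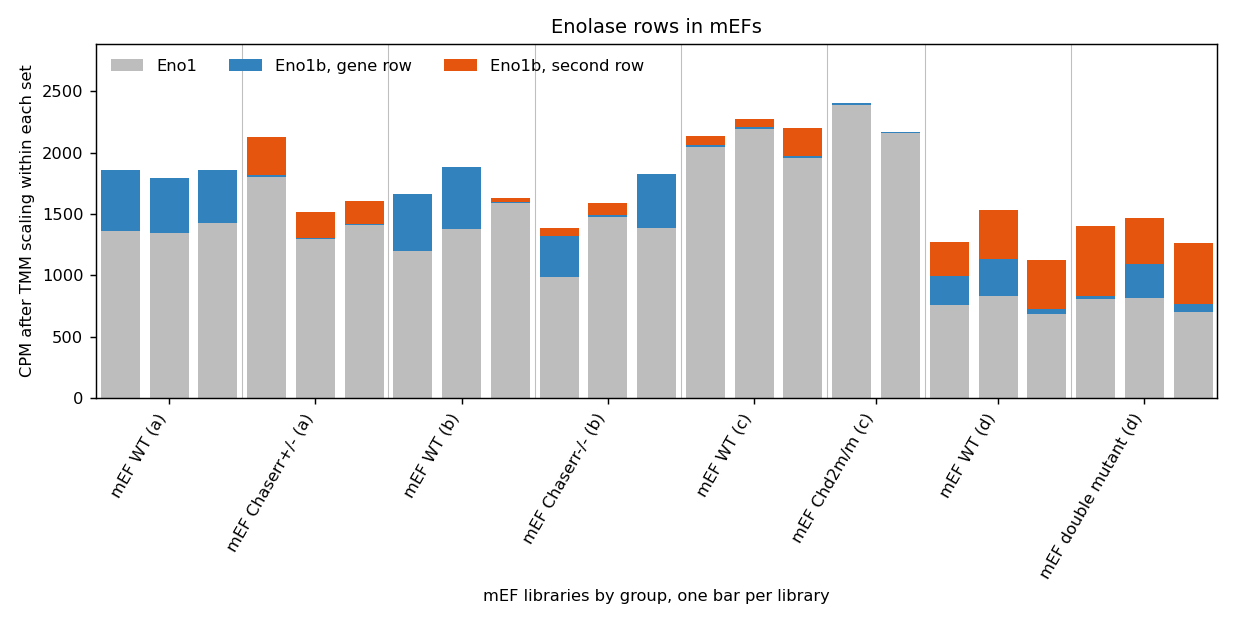
CPM of Eno1 (grey), the Eno1b gene row (blue) and the second Eno1b row (orange), stacked, in the 23 mEF libraries, 1 bar per library; (a) to (d) mark the sets of Chaserr+/-, Chaserr-/-, Chd2m/m and the double mutant. The blue part reaches 235 to 499 CPM in 10 libraries and 9.2 to 60.6 CPM in 13, and in set (a) it gives way to orange in all 3 Chaserr+/- libraries, while whole bars stay between 1125 and 2406 CPM.

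Serpina3h belongs to a cluster of serine protease inhibitors on chromosome 12 (mm9 chr12:105486115-105491879, plus strand) and is listed as a noncoding transcript. In the Chaserr+/- mEF set it had 18.9, 18.4 and 24.8 counts in WT and 342, 407 and 275 in Chaserr+/-. The groups were far apart, with a log2 fold change of 3.99 ± 0.17 (SE), which chose the gene. In the Chaserr-/- set, however, all 6 libraries were high, with 366, 189 and 196 counts in WT and 378, 302 and 336 in Chaserr-/- (log2 fold change 0.46 ± 0.23, adjusted p = 0.188, edgeR with Benjamini-Hochberg). All 5 libraries of the Chd2m/m set were low, at 29.4, 33.6 and 29.1 counts in WT and 27.7 and 28.3 in Chd2m/m.

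The double-mutant set again mixed both states of Serpina3h, in 1 library. WT libraries had 34.4, 31.3 and 31.5 counts and mutants 28.1, 369 and 15.5, so that the log2 fold change of 2.07 ± 0.81 rested on double-mutant library 2 (adjusted p = 0.409, edgeR with Benjamini-Hochberg). In all 23 mEF libraries Serpina3h was at 19.3 to 38.8 CPM in 10 and at 1.34 to 2.24 CPM in 13 (a split at 10 CPM, set after the values were seen). The Eno1b gene row was high in 5 of the 10 Serpina3h-high libraries and in 5 of the 13 low ones. Chaserr+/- mEFs were high in Serpina3h and low in Eno1b, their WT libraries the reverse, and 4 of the 6 libraries of the Chaserr-/- set and double-mutant library 2 were high in both. The 6 macrophage markers summed to 156 to 1058 TPM in the 10 high libraries and 215 to 730 TPM in the 13 low ones. By set they came to 156 to 347 TPM in Chaserr+/- and 215 to 282 in its low WT libraries, to 682 to 1058 in the all-high Chaserr-/- set and to 402 to 603 in the all-low Chd2m/m set. Their part in the Serpina3h levels was not tested.

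Other genes of the cluster were set beside it. Serpina3g was at 20.0 to 81.6 CPM in all 23 mEF libraries. Serpina3i matched 624 bases of the Serpina3h transcript at 96.8% identity and was at 0 to 3.1 CPM. Over the 41 libraries outside the RIP, Serpina3i was also the row most like Serpina3h once each set's mean had been taken off (Pearson r = 0.69 among 17419 rows compared); the part of their shared sequence in this likeness was not tested. Of 10 Serpina3 genes with a row, up to 4 were tested in a comparison, and none was called.

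**Figure D5:**
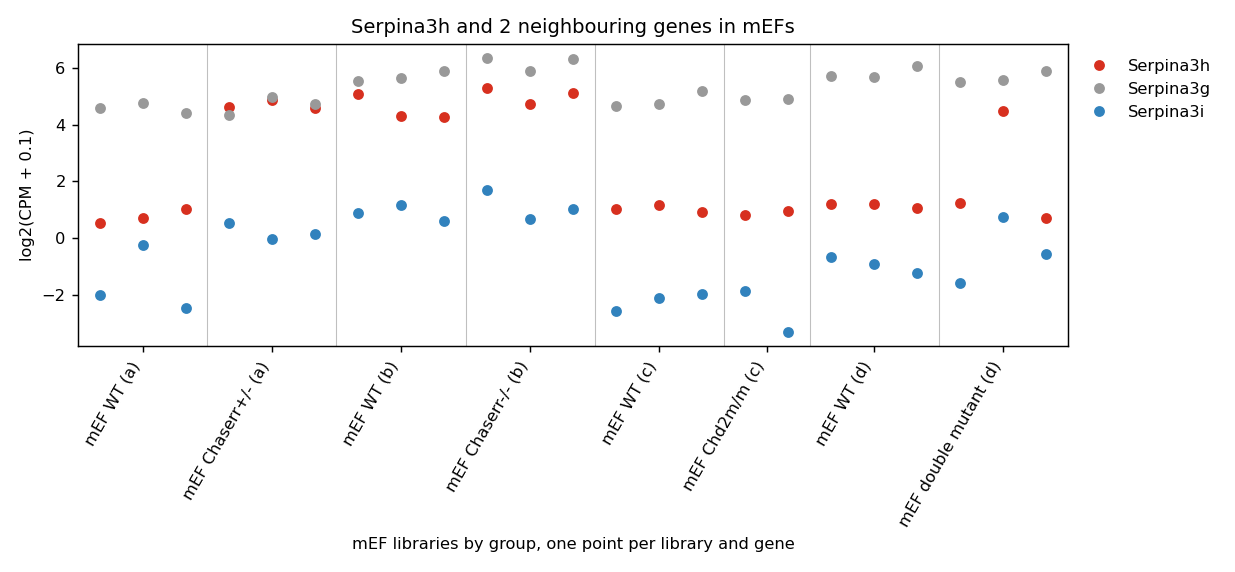
Serpina3h (red), Serpina3g (grey) and Serpina3i (blue) in the 23 mEF libraries, as log2 of CPM plus 0.1, 1 point per library and gene; (a) to (d) mark the sets of Chaserr+/-, Chaserr-/-, Chd2m/m and the double mutant. Red points fall into a high band (19.3 to 38.8 CPM) and a low band (1.34 to 2.24 CPM), with 1 double-mutant library in the high band, while grey points stay in 1 band.

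Gm6756 is an intronless copy of Phgdh, whose enzyme starts the synthesis of serine, and lies at mm9 chr18:37080283-37081861. Its transcript matched 10 other loci of mm9 in a single long piece at 90.3 to 94.5% identity. The Phgdh locus itself was not among them. In the Chaserr+/- mEF set it had 53.6, 48.4 and 65.1 counts in WT and 14.8, 6.22 and 10.04 in Chaserr+/-, a log2 fold change of -2.45 ± 0.31 (SE) that chose the gene and lay between -2.77 and -2.14 under all fits. In the other mEF sets it stayed at 0 to 17.7 counts whatever the genotype, so the 3 high WT libraries stood apart from the other 20. At E9.5 it switched within genotypes, with 58.0, 0 and 65.6 counts in WT and 87.1, 64.1 and 0 in Chaserr+/- (log2 fold change 0.30 ± 1.21, adjusted p = 1.00, edgeR with Benjamini-Hochberg). Its count never exceeded 2.38% of that of Phgdh in the same library.

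The rows of one symbol were also summed. For the 3 symbols with several rows there were 70 combinations of a row with 1 of the 7 mutant sets, and 10 whose highest value, scaled to the mean library size, was under 20 counts were left out. In 13 of the remaining 60 the change of the row exceeded 1 in size on the log2 scale. In 6 of these the sum of the symbol's rows moved by 0.25 or more, those of Eno1b in Chaserr+/- and Chd2m/m mEFs and of 3 Zfp131 rows in Chaserr-/- mEFs. In the other 7 it moved by less, but there the row was so small a part of the sum that its own change would have moved the sum by at most 0.17, so nothing is read from them. They were NR_002891* of Gm5512 in E9.5 embryos and in Chaserr-/- mEFs, NM_001302548* and NM_001302549* of Zfp131 in brains, NM_001302549* and NM_001302550* of Zfp131 in the double-mutant set, and NM_001025388* of Eno1b in Chaserr-/- mEFs. The 6 Zfp131 rows summed to 38.5 ± 5.81 CPM (SD, n = 3) in WT and 67.1 ± 22.2 CPM (n = 3) in Chaserr-/- mEFs, a log2 ratio of 0.80, and the highest WT sum was below the lowest Chaserr-/- sum. Beside NM_001302548*, the rows NM_001302547* and NM_028245* differed there by log2 fold changes of 1.16 ± 0.30 and 1.06 ± 0.48 (SE).

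Open chromatin, which the choice of genes did not use, differed by member more than by library. A deposited ATAC-seq peak lay within 300 bases of the promoter in 12 of 12 mEF libraries for AI506816, Wdfy1 and Serpina3h, with highest fold enrichments of 9.91 to 18.1, 7.13 to 20.3 and 5.81 to 12.4 per library. Entpd4 had one in 11 of 12, at 9.55 to 13.52. Its peak was missing from WT library 2 of the double-mutant set, the library with the fewest peaks (18661). The copies Eno1b, Gm6756 and Gm5512 had none in any of the 12, and neither had Gm13699, whereas Eno1 had one in all 12. The window of Gm5512 lay wholly inside the 1760 bases that match Rmnd1. Short reads there can fit both places, so nothing is read from its lack of a peak. The window of AI506816 held the 206 bases that recur at 2700038G22Rik with 6 differences. 2700038G22Rik had a peak in all 12 libraries too, at 10.8 to 20.1. The part of this match in the AI506816 peak was not tested. Zfp131 could not be placed, because peaks are named by chromosome and its mm9 copies lie on unplaced contigs.

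In the RIP immunoprecipitates the markers went against the label of a neuroblastoma line. The 7 brain markers summed to 2406 to 2667 TPM with CHD2, 3640 to 4727 with IgG and 914 to 1050 in input. Mbp, a myelin protein gene, reached 1149 to 2509 TPM in the immunoprecipitates, Gfap, an astrocyte gene, 64.1 to 149, and the adult globin gene Hba-a1 1106 to 1870. The 5 erythroid markers with a row, Hba-a1 among them, summed to 1106 to 1247 TPM with CHD2 and 1352 to 1871 with IgG. Hba-a1 thus made up nearly all of these sums. The 6 neuroblastoma markers summed to 242 to 344 TPM over the 6 libraries, against 324 to 579 in brains. Brain and globin RNA were thus higher with IgG than with CHD2, and their part in the comparison was not tested.

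The CHD2 immunoprecipitate was compared with IgG, in a comparison that had not chosen the genes other than Gm5512. The edgeR test called 4 of 11 member rows higher, where it called 11.5% of all rows, 1651 of those 1707 higher. The gene row and a transcript row of Zfp131 are both among the 4, so this gene is counted more than once. Wdfy1 had 86.1 and 67.0 CPM in the CHD2 libraries, 28.5 and 25.6 CPM with IgG and 24.5 and 32.1 CPM in input. The CHD2 libraries lay above all others, with a log2 fold change over IgG of 1.5 ± 0.30 (SE, adjusted p = 0.0179, edgeR with Benjamini-Hochberg). The Zfp131 gene row had 19.6 and 18.4 CPM with CHD2, 2.97 and 3.64 with IgG and 5.81 and 9.13 in input (2.52 ± 0.42, adjusted p = 0.00941, same test). Its row NM_001302547* rose likewise by 2.67 ± 0.60 (adjusted p = 0.0256, edgeR with Benjamini-Hochberg). Entpd4 did not pass, at 71.9 and 74.2 CPM with CHD2 and 79.6 and 56.3 CPM with IgG (0.10 ± 0.30, adjusted p = 0.819, same test). The fourth call was NR_002891* of Gm5512, which gets no test here.

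These RIP calls depended on single libraries. Without CHD2 library 1 or 2 edgeR called 0 rows of the table (3435 and 2944 at an unadjusted p under 0.05; DESeq2 was not run on these subsets), and the log2 fold changes then were 1.15 and 1.43 for Wdfy1, 2.32 and 2.33 for the Zfp131 gene row and 2.39 and 2.55 for NM_001302547*. Of the 17 Zbtb genes tested, which encode other BTB zinc finger proteins, Zbtb1, Zbtb10, Zbtb20 and Zbtb44 were called higher with CHD2, by 1.54 to 3.60 on the log2 scale (edgeR), and none lower, where 11.5% of all rows were called. None of the Zbtb or Wdfy genes was called in an embryo, brain or mEF comparison.

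Genes next to the members were also counted. Of the 48 nearest genes with a row, 3 on each side of each member, 0 were on-off or called in any of the 7 mutant sets. Per set, 0.396 to 1.41% of all rows on in any library were on-off. Calls took in 0 to 0.173% of all rows tested. With shares that low, nothing is read from the count of 0. Over the 41 libraries the Eno1b gene row had the lowest correlation with NM_001025388* of all rows compared (Pearson r = -0.69), a description across libraries that share sets and depth. For NM_028245* of Zfp131 the most alike row was Uqcrb (r = 0.88).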

How the data were processed

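Mouse RNA-seq (47 libraries) and ATAC-seq (12 libraries) were analysed. Per the labels and methods, the authors aligned RNA reads to RefSeq transcripts with an edited last Chaserr exon and estimated expected counts, TPM and the abundance-weighted row length (other unit: bases) with RSEM, 1 file per library. ATAC-seq reads were aligned with Bowtie2 to mm9 and the authors called peaks with MACS2 per library; the deposited fold enrichment (a ratio) and −log10 q-value were used as given. Tool versions, and the role of mm10 for the RNA files, are not given in the sources used here. Embryo and brain replicate 3 libraries used a different kit (TruSeq) from the other brains and the mEFs (SENSE). No column was left unmatched to a sample (0).

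Each mutant group was compared with its own WT libraries, and the 6 RIP libraries were fitted together. Expected counts were rounded and tested with edgeR 4.0.16 (quasi-likelihood, filterByExpr, TMM scaling) in R 4.3.3, with Benjamini-Hochberg adjustment over all rows tested and a threshold of 0.05; the study had used DESeq2, which served as an alternative (version 1.42.0). The script was tested on simulated data. CPM was computed after TMM scaling. No fold is given against a group at 0. Replicates are separate libraries; where nothing says that they came from separate animals, p-values measure only the spread between libraries. Same-numbered brains deviated together (correlations 0.44, 0.53 and 0.75). Replicate 3 of both brain groups shares another kit, and deviations were taken from group means that include it. The correlations therefore cannot show whether the other brains are pairs.

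Rows were named by symbol, with the row IDs matched to RefSeq for 99.96% of rows. The members and all gene lists were chosen with earlier results of these data known. Transcripts and RefSeq promoters were compared with the mm9 genome by BLAST (blastn 2.17.0, 90% identity or more), in place of the planned comparison of proteins, for which no table was used here. Only long matches in a single piece were kept, so a copy split into exons can be missed. On-off thresholds were 0 and 20 counts. Alternatives were no filter on low counts, DESeq2, rows of one symbol summed, a replicate block, each library left out, other on-off thresholds and other peak settings.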

Additional observations from a re-analysis of the deposited data

How the results depend on the processing

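The number of members called by edgeR depended on the fit as follows. It was 1 in place of 0 for E9.5 embryos with DESeq2, 1 in place of 3 for E13.5 embryos with a replicate block, and 2 in place of 4 for Chaserr+/- mEFs with rows of one symbol summed. For Chaserr-/- mEFs it was 2 without a filter or with DESeq2 and 0 with summed rows, in place of 1, and for Chd2m/m mEFs 0 with summed rows and 2 with the block, in place of 1; the block adds Wdfy1, at 0.69 ± 0.10 (adjusted p = 1.05e-07) in place of 0.34 ± 0.28 (0.937). For the RIP it was 2 with summed rows in place of 4. Summing leaves fewer rows to call, but the summed rows were tested too. Summed Eno1b did not pass in Chaserr+/- and Chd2m/m mEFs (log2 fold changes -0.91 ± 0.15 and -3.30 ± 0.46). Summed Zfp131 did not pass in Chaserr-/- mEFs (0.80 ± 0.22). Causes of the changes between fits were not tested. Leaving out 1 library gave 0 to 0 calls for E9.5 embryos and brains, 1 to 2 for E13.5 embryos, 3 to 4 for Chaserr+/-, 1 to 3 for Chaserr-/-, 0 to 1 for Chd2m/m and 0 to 0 for double-mutant mEFs, and 0 to 8 for the RIP. Apart from the brains, same-numbered libraries did not deviate together (correlations -0.29 to 0.35), so the block there pairs numbers only. In brains, where pairing could not be told apart from the shared kit, the block left 0 members called. On-off combinations numbered 12 in place of 22 when on meant 50 counts, and 20 to 22 without 1 library. ATAC-seq peak counts did not change under 2 other settings. Over all rows, calls moved from 16 to 1407 without a filter and 2582 with DESeq2 in Chaserr-/- mEFs, from 13 to 103, 222 and 75 (block) in the double mutant, from 23 to 68, 99 and 74 in Chaserr+/- mEFs, from 2 to 6, 8 and 88 in Chd2m/m mEFs, from 0 to 1 and 5 at E9.5, from 0 to 0 and 1 in brains, from 5 to 6, 21 and 1 at E13.5 and from 1707 to 2563, 3597 and 3757 in the RIP. Depth limits what a count of 0 shows, most of all in the CHD2 library with the lowest total (7621335). No fold change that the text gives with a test for Wdfy1 and Zfp131 in the RIP turned direction.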
